A study of Mus musculus with 40 samples.

Results

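Clean joins that end at the last target of a lineage-recording array were examined in 1 mouse liver library. They are deletions that remove sequence between an inner target and target 10, with no inserted bases, and leave target 1 outside. Members were chosen by their listed start and end: a deletion had to overlap the cut window of target 10 and that of at least 1 other target, but not the window of target 1. A cut window is the last 7 bases of a target, bases 19 to 25 for target 1 and bases 262 to 268 for target 10. Of 12767 listed alleles, 2833 held such a deletion (22.2%, 95% exact binomial interval 21.5 to 22.9%), and they carried 6560 of 32342 UMIs (20.3%). No allele held more than 1, which the rule fixes, since separate deletions cannot both reach from an earlier window into that of target 10. The number of members per first target, their positions and their UMIs are therefore a description of what the list holds.

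The series labels describe 40 liver samples, and 1 of them was analysed here, a right inferior lobe taken from animal YK184 and carrying the mark E15.5. The labels leave unsaid if E15.5 is a time of induction or of collection, and they give no genotype beyond DARLIN, no agent and no age. With 1 library there are no replicates and no comparison between lobes, stages or animals, so no test was made. Intervals cover counting error only, and alleles of 1 library are not replicates of a condition. A unique molecular identifier (UMI) marks 1 reverse-transcribed array molecule, so UMIs count RNA molecules rather than cells, and identical edits made in separate cells fall into 1 allele.

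DARLIN mice carry arrays of Cas9 targets together with the matching guides and a Cas9 fused to terminal deoxynucleotidyl transferase, which extends DNA ends with bases that no template dictates. Cas9 cuts inside a target close to the adjacent motif (PAM) that it needs for binding. An end may be rejoined locally, with bases lost or added, or to the end from another cut, which removes everything in between. A target whose bases next to the PAM still match its guide can be cut again, whereas an altered target is recognised poorly. The array studied lies at Col1a1, a type I collagen gene at bases 94936224 to 94953042 of chromosome 11 in GRCm38.p6. No source used here places the array within that locus.

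The array holds 10 targets, each 20 bases long, and successive targets start 27 bases apart. Base 1 is where the array begins. The cut of target 1 falls after base 22 and that of target 10 after base 265. A join made exactly at both cuts leaves the first 17 bases of the inner target directly followed by the last 3 bases of target 10 and its PAM. The letters at a join can be read where the list states a substitution, since a substitution names the base it replaced. The 291 listed substitutions covered 40 of the 70 window bases. The windows are shown because the joins are grouped below by the bases at the cut. Whether these bases shape the joins was not tested. Letters before the cut are in lower case, letters after it are in capitals, and n or N marks a base that no listed substitution gave.
Target 1: ncnaCGN
Target 2: nataCGN
Target 3: nnnaCNN
Target 4: ncnnCTN
Target 5: nncgCTN
Target 6: ncnaCTN
Target 7: nnngCNN
Target 8: nncgCGN
Target 9: gacgATN
Target 10: cagaCNA
Directly after the cut, targets 2 and 8 thus read CG, targets 4, 5 and 6 read CT and target 9 reads AT. The substitutions G51T (23 alleles), G213T (2 alleles), T105G (5 alleles), T132G (9 alleles), T159G (4 alleles) and T240G (2 alleles) give the letter that separates the CG from the CT and AT targets. At targets 3, 7 and 10 that letter was not read.

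Every inner target served as the start of a clean join to target 10, and the counts did not follow the distance to target 10. Target 3 was the commonest start, with 499 alleles (17.6% of members, 95% exact interval 16.2 to 19.1%) and 1211 UMIs. Target 8 followed with 455 alleles (16.1%) and 870 UMIs, and these intervals overlapped. Targets 6 and 5 started 413 and 404 alleles (14.6% and 14.3%), with 809 and 757 UMIs. Target 7 started 314 alleles (11.1%) with 665 UMIs, and target 2 started 296 (10.4%) with 1402 UMIs. The fewest started at target 9, with 235 alleles (8.30%) and 459 UMIs, and at target 4, with 217 alleles (7.66%, 6.71 to 8.70%) and 387 UMIs. Target 4 lies next to target 3, and their intervals did not overlap. The order of first targets depended on how alleles were counted. With alleles 1 inserted base apart folded into 1, target 8 led (17.6%, against 15.4% at target 3) and target 2 was the rarest start (7.59%, against 7.95% at target 4). With each distinct deletion counted once, target 2 (15.6%) stood next to target 3 (15.3%), and among alleles of at least 5 UMIs target 2 led with 25.1% against 22.6%. With whole 20-base targets in place of windows, target 9 (11.6%) passed targets 2 (10.5%) and 7 (10.6%).

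Weighted by molecules, the order was different. Joins from target 2 held the most UMIs, 1402 or 21.4% of those of all members, ahead of target 3 with 1211 or 18.5%. The 2 largest of the 296 alleles from target 2 held 157 and 79 UMIs, together more than this lead. A join from target 2 had 4.74 UMIs on average and a median of 2, and 43.2% of these alleles had a single UMI (37.5 to 49.1%). For every other first target the median was 1 and the mean lay between 1.78 at target 4 and 2.43 at target 3. The share with a single UMI was 52.9% at target 3 (48.4 to 57.4%) and between 60.0% and 68.7% at targets 4 to 9. Joins from target 2 are the longest, with a median of 218 bases, and the only ones in which no other target lies between the join and target 1.

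Counted by allele, the start of the join lay exactly at the cut more often than its end. Of the 2833 members, 1982 began with the first base after the cut of their first target (70.0%, 68.2 to 71.6%). Only 1092 ended with the base before the cut of target 10 (38.5%, 36.7 to 40.4%). Counting each distinct deletion once, the order turned, with 21.8% starting and 27.4% ending at the cut, and at target 9 the counts were 146 starts and 147 ends. Of the members, 606 (21.4%) had also lost bases before the first cut, up to 23 of them, and 245 (8.65%) kept 1 or 2 bases after it. The rule fixes the unequal reach of these offsets: a start 3 or more bases past a cut belongs to the next target, whereas a start before the cut may reach back to the previous window. Target 2 was the least precise start, with 42.2% at the cut (36.5 to 48.1%) and 46.6% with bases lost before it. Target 5 was the most precise, with 82.4% at the cut (78.4 to 86.0%).

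Ends fell on a few bases of target 10. After base 265, directly before the cut (1092 alleles), the commonest last deleted bases were 264 (510 alleles), 267 (438 alleles), 268 (353 alleles), 263 (141 alleles) and 266 (140 alleles). In all, 685 members (24.2%) kept bases before the cut of target 10, at most 3 by the rule. Another 1056 (37.3%) lost bases beyond that cut, at most 9. Ends beyond the window of target 10 were found in 125 members with 258 UMIs.

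The share of joins that ran exactly from cut to cut differed widely by first target. Exact joins formed 702 of the 2833 members (24.8%, 23.2 to 26.4%) and 19.8% of their UMIs. At target 5 they formed 240 of 404 alleles (59.4%, 54.4 to 64.2%), at target 9 109 of 235 (46.4%, 39.9 to 53.0%), at target 6 189 of 413 (45.8%, 40.9 to 50.7%) and at target 4 90 of 217 (41.5%, 34.8 to 48.3%). The other four targets gave few. Target 8 had 40 exact joins among 455 alleles (8.79%, 6.35 to 11.8%) and target 7 had 16 among 314 (5.10%, 2.94 to 8.14%). Target 2 had 9 among 296 (3.04%, 1.40 to 5.69%) and target 3 had 9 among 499 (1.80%, 0.828 to 3.40%). No interval of targets 4, 5, 6 and 9 overlapped one of targets 2, 3, 7 and 8. Single values depended on the alleles counted. The share fell to 4.05% at target 8, 1.64% at target 7 and 0.719% at target 3 among alleles of at least 3 UMIs. At 5 UMIs it was 0 of 25 alleles at target 8, 0 of 27 at target 7 and 5.56% of 72 at target 2. Folding gave 1.05% at target 2 and 1.04% at target 3, and whole targets gave 30.5% at target 9. Weighting by UMIs gave 3.16% at target 7, and among members with no other join 1 of the 5 from target 7 was exact.

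This division coincided with the letters after the cut, a grouping that was made after the exact shares had been seen. The targets reading CT gave exact joins in 519 of 1034 alleles (50.2%, 47.1 to 53.3%), and the AT target 9 in 46.4%. The CG targets 2 and 8 gave 49 of 751 (6.52%, 4.87 to 8.53%), and targets 3 and 7, whose second letter after the cut was not read, gave 25 of 813 (3.08%, 2.0 to 4.51%). A deletion of the same length can be written some bases further along where the array repeats itself. Searching every placement from 4 bases earlier to 10 bases later found no deletion shifted to a later base for any first target. The base after the cut is C at targets 2 to 8, and base 266 is also C. An exact join there thus spells the same sequence as a deletion listed 1 base later. The search shows where the list writes such joins and cannot settle their position. Deletions of the same length at earlier bases occurred in 4 alleles at target 2 and 6 at target 5. Targets 7, 8 and 9 had 1, 2 and 3 such alleles. By the letters read, these spell other sequences than the exact join, and they were not counted with it.

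Joins that do not involve target 10 played no part in choosing the members, and they followed the division between targets only in part. Joins from target 1 showed it. Among clean joins that start at target 1, which reads CG, the end lay exactly at the cut, with an exact start, in 24.6% at target 4, 25.6% at target 5, 28.1% at target 6 and 15.1% at target 9. The corresponding shares were 2.07% at target 2, 2.06% at target 3, 1.85% at target 7 and 2.33% at target 8. Among clean joins between inner targets whose letters were read at both ends, 4 target pairs had the same letters and 11 had different ones. Same-letter pairs held 36 exact joins among 333 (10.8%, 7.69 to 14.7%), from 6.82% for targets 2 and 8 to 16.1% for targets 5 and 6. Different-letter pairs held 809 among 2029 (39.9%, 37.7 to 42.0%), from 30.8% for targets 2 and 9 to 64.0% for targets 5 and 8. The division between targets did not hold in these inner joins. Target 2, with few exact joins to target 10, gave 36.2%, 31.0%, 40.1% and 30.8% exact joins with targets 4, 5, 6 and 9, and targets 7 and 9 gave 67.1%. Targets 4, 5 and 6, rich in exact joins to target 10, gave 24 exact joins among 157 when joined to each other (15.3%, 10.05 to 21.9%). Among the 13 pairs with a letter that was not read the shares ran more widely, from 0 of 142 for targets 3 and 4 to 78.9% for targets 5 and 7. Some members and inner joins share an allele, and no test of these differences was made.

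Where exact joins were rare, other ends led. With the start exactly at the cut, joins from target 3 ended mostly at base 268 (136 alleles) or 264 (103 alleles). Joins from target 8 ended at base 264 in 112 alleles and at base 267 in 111, and joins from target 7 ended at base 267 in 109 and at base 264 in 81. At target 2, base 264 led with 38 of 125 alleles, ahead of base 263 with 24. At targets 4, 5 and 6 the end at base 264, and that at base 267 or 268, each held 32 to 48 alleles, behind the exact join. At target 9, base 267 ended 30 of the 146 joins that started at the cut.

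The counts at bases 267 and 268 differed with the last base that the join kept. The last kept base is A at targets 2, 3 and 6 (A49C, A76G, A157T) and G at targets 5, 7, 8 and 9 (G130T, G184A, G211A, G238A). With the start at the cut, targets with a kept A ended at base 268 in 179 alleles and at base 267 in 32 (84.8% at 268, 79.3 to 89.4%). Targets with a kept G ended at base 268 in 4 alleles and at base 267 in 293 (1.35%, 0.368 to 3.41%). Target 4, whose last kept base was not read, had 34 at base 268 and 4 at base 267. Base 268 is itself an A (A268T), so a join that keeps A and removes base 268 reads the same as one that ends 1 base earlier and starts 1 base earlier. For such joins the list gives 1 of several placements that spell the same sequence, and the offsets of single bases carry that ambiguity. The letter at base 267 was not read.

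A small set of deletions recurred in many alleles. The 2833 members used 340 distinct deletions, of which 158 occurred in 1 allele and 182 in 2 or more. The 45 deletions seen in 10 or more alleles accounted for 75.5% of the members, and the 10 commonest for 45.2%. The commonest, bases 131 to 265, is the exact join of targets 5 and 10. It occurred in 240 alleles with 442 UMIs and beside 102 different edits at target 1. The next, bases 158 to 265, is the exact join of targets 6 and 10, with 189 alleles, 389 UMIs and 97 different edits at target 1. Bases 77 to 268 (target 3) were lost in 136 alleles with 388 UMIs, beside 62 edits at target 1.

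The remaining common deletions were of similar frequency. From target 8, bases 212 to 264 and 212 to 267 were lost in 112 and 111 alleles. From target 7, bases 185 to 267 were lost in 109 alleles and bases 185 to 264 in 81. The exact join of targets 9 and 10, bases 239 to 265, also occurred in 109 alleles and that of targets 4 and 10, bases 104 to 265, in 90. Bases 77 to 264 were lost in 103 alleles. All 10 of these deletions started exactly at a cut. Each was found beside at least 51 different edits at target 1. The remaining exact joins were rarer: bases 50 to 265 (target 2) and 77 to 265 (target 3) were lost in 9 alleles each, 185 to 265 (target 7) in 16 and 212 to 265 (target 8) in 40.

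Joins with inserted bases between the same targets were nearly as numerous. They were found in 2574 alleles with 5419 UMIs, so that 52.4% of the joins to target 10 that spared target 1 were clean (51.1 to 53.7%). By first target the clean share was highest at target 5, with 404 clean and 107 with inserted bases (79.1%, 75.3 to 82.5%). It was lowest at target 9, with 235 and 397 (37.2%, 33.4 to 41.1%). The others lay between 46.0% at target 2 and 58.3% at target 4.

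The low share at target 9 rested on long inserts. There, 342 of the 397 joins carried 4 or more inserted bases, and 1 identical insert of 14 bases in place of bases 223 to 265 recurred in 122 alleles. Counting only joins with 1 to 3 inserted bases, a choice made after these long inserts were seen, the clean share at target 9 was 81.0% (76.0 to 85.4%). At target 5 it was then 84.0% (80.4 to 87.2%), and over all first targets 63.0% (61.6 to 64.4%). The lowest value was then 49.9% at target 3 (46.8 to 53.0%).

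Between the exact cut positions, first targets differed in whether bases were listed as added. At target 3, 9 exact joins were clean and 340 carried 1 to 3 added bases at the same positions (2.58% clean, 1.19 to 4.84%). At target 5, in contrast, 240 were clean and 35 carried added bases (87.3% clean, 82.7 to 91.0%). Target 9 had 109 and 22 (83.2%), target 6 had 189 and 123 (60.6%), and target 4 had 90 and 86 (51.1%). Target 8 had 40 and 208 (16.1%), target 7 had 16 and 117 (12.03%), and target 2 had 9 and 151 (5.63%). Targets 4, 5, 6 and 9 had the higher shares here too, but the clean counts are the same alleles as in the exact shares above. The order is therefore not a separate result. These shares also leave out an added A, or an added C at targets 2 to 8, which would read as a clean deletion with a shifted end. Such deletions, treated next, numbered 37 with a shifted end and 7 with a shifted start at target 5. The counts were 103 and 36 at target 3, and at target 9 the start was shifted in 20.

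Part of the clean joins read the same as an exact join with 1 added base. Base 265 is an A (A265T), so an exact join with an added A spells the same sequence as a deletion that ends at base 264. The base after the cut is C at targets 2 to 8 (C50A at target 2, C212A at target 8), so an added C there spells the same as a deletion that starts 1 base after the cut. Among the 1133 joins listed at exact cut positions with inserted bases, 430 had G and 143 had T as the only inserted base. A was listed in 0, and C in 4, all of them at target 9. The equivalent clean deletions were common: 451 members started at the cut and ended at base 264, and 183 started 1 base after the cut and ended at base 265. At target 9, where the base after the cut is an A (A239G), the deletion of bases 239 to 264 reads the same as that of bases 240 to 265. The list held the latter in 20 alleles and the former in 0. Together, 634 of the 2833 members (22.4%, 20.9 to 23.96%) were of these forms. Counted as joins with an inserted base instead, they would lower the clean share of all joins to target 10 from 52.4% to 40.7%.

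Counted by sequence rather than by listing, exact joins with 1 extra base numbered 1211. The extra base was A in 471 (38.9%, 36.1 to 41.7%), G in 430 (35.5%, 32.8 to 38.3%), C in 167 (13.8%) and T in 143 (11.8%). A and G together made up 74.4% (71.8 to 76.8%). Among the 631 single-base insertions at target 1 of the members, A and G made up 73.9% (70.2 to 77.2%), with G (41.8%) ahead of A (32.0%). The list cannot tell a base added at the join from a base of the array that was kept.

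Target 1, which the rule left outside the join, was altered in almost every member. It was unaltered in 65 of the 2833 alleles (2.29%, 1.78 to 2.92%). This was not particular to the members. Beside joins to target 10 with inserted bases, target 1 was unaltered in 2.06% (1.55 to 2.68%). Beside clean joins from target 1 that spared target 10, target 10 was unaltered in 2.34% (1.83 to 2.93%). A local insertion was the commonest edit, in 1264 alleles (44.6%, 42.8 to 46.5%). A second multi-site deletion took target 1 in 1156 alleles (40.8%, 39.0 to 42.6%), clean in 557 and with inserted bases in 599. Local deletions without added bases were present in 250 alleles (8.82%), those with added bases in 78 (2.75%) and a substitution alone in 20 (0.706%).

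The share of members with target 1 in a second join differed widely by first target. It was 15.4% at target 3 (12.4 to 18.9%), 30.4% at target 4, 47.3% at target 5, 45.3% at target 6, 58.9% at target 7, 63.7% at target 8 and 68.1% at target 9 (61.7 to 74.0%). At target 2 it is 0 by construction, since no other window lies between. For later first targets more windows lie between, so the room for a second join with target 1 also grows by construction. Among the 1677 members with target 1 outside any join, local insertions made up 75.4% (73.2 to 77.4%). By first target this share ranged from 71.6% at target 2 to 80.6% at target 8 (73.7 to 86.3%), and all 8 intervals overlapped. Local deletions made up 14.9% and unaltered sites 3.88%.

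The insertions at target 1 were short and rich in purines. Of the 1264, 1143 lay exactly at the cut (90.4%). G alone was inserted in 264 (20.9%, 18.7 to 23.2%), A in 202 (16.0%), GG in 104 (8.23%), AG in 91 (7.20%), T in 88 and C in 77. Single bases made up 49.9% and pairs of bases 36.6%, and the longest insertion had 31 bases. Of all bases inserted there, 78.7% were A or G. Local deletions at target 1 were more uniform: bases 23 to 25, the end of the target after the cut, were lost in 79 of 250 alleles, bases 24 to 35 in 40 and bases 16 to 25 in 22.

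The mirror set, clean joins from target 1 to targets 2 to 9 that spared target 10, comprised 3080 alleles. Of these, 557 are also members, since they hold a join at each end. At target 10 in this set, local insertions made up 74.9% of the 2173 alleles without a join there (73.0 to 76.7%), an interval that overlapped that of target 1 in the members. The insertions were longer: 34.6% had 1 base and 43.5% had 2, against 49.9% and 36.6% at target 1, with 83.2% A or G. In the alleles with inserted bases in the join to target 10, local insertions at target 1 were found in 69.5% of those without a join there (67.2 to 71.7%). Local deletions with inserted bases were found in 14.3% (12.7 to 16.1%), against 4.65% (3.69 to 5.77%) in the members. These intervals did not overlap, and the difference was not tested.

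Most members were one of several events in their allele. The join was the only event in 35 alleles, 846 alleles had 2 events, 1107 had 3 and 845 had 4 or more. Another multi-site deletion was present in 1838 members (64.9%, 63.1 to 66.6%). This share was 0 of 296 at target 2, 15.4% at target 3, 40.6% at target 4, 74.3% at target 5, 90.6% at target 6 and 98.4% at target 7. By construction, more targets lie before the join at later first targets, so the room for another such deletion grows. All 455 members from target 8 and all 235 from target 9 had another multi-site deletion. The 995 members without one therefore came from targets 2 to 7, with 422 from target 3, 296 from target 2 and 5 from target 7.

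Net loss of sequence, deleted minus inserted bases over the whole allele, differed less between first targets than the length of the join. The median join removed 218 bases from target 2, 191 from target 3, 162 from target 4, 135 from target 5, 108 from target 6, 83 from target 7, 55 from target 8 and 27 from target 9. The median net loss per allele was 218 bases from target 2, 190 from target 3 and 171 from target 4, and between 185 and 187 from targets 5 to 9. Over all 12767 alleles the median net loss was 185 bases, and 5% of alleles had lost 127 or fewer. No member had lost fewer than 78. Short joins were thus listed together with further losses. No source used here says if alleles with smaller losses were removed before deposit, and the counts by first target describe the listed alleles only.

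Intact targets were uncommon in the members. As for target 1 above, a target counted as unaltered if no event touched its cut window. No share over all listed alleles is given here, so the values describe the members only. At least 1 unaltered target was present in 258 alleles (9.11%, 8.07 to 10.2%), with a maximum of 6 in 1 allele. The share was highest at target 5 (12.9%, 9.76 to 16.5%) and lowest at target 2 (5.07%, 2.86 to 8.22%), where target 1 is the only target outside the join that could stay intact. The target directly before the join was unaltered in 11.6% of members from target 5 and in 1.84% of those from target 4, and over all first targets in 6.57%. It carried a local insertion in 1051 alleles (37.1%).

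Most alleles were small, members and others alike. A single UMI supported 1723 members (60.8%, 59.0 to 62.6%) and 6336 of the other alleles (63.8%). Of the members, 486 had 2 UMIs and 624 had 3 or more. Their mean was 2.32 UMIs, against 2.60 in the 9934 other alleles, and both medians were 1. The mean of the other alleles includes 1 allele of 1589 UMIs. The 74 members with 10 or more UMIs held 1406 UMIs, 21.4% of the total.

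The largest member alleles started at target 2 and carried a small edit at target 1. The first had GG inserted after base 22 and lacked bases 50 to 263, with 157 UMIs (2.39% of member UMIs). The next pair both lacked bases 50 to 264, with A inserted after base 22 in 79 UMIs and G in 44. The fourth lacked bases 23 to 25 and bases 46 to 267, with 41 UMIs. The fifth differed in kind: it joined targets 8 and 10 by loss of bases 212 to 267 and held 4 more deletions, of bases 18 to 36, 50 to 131, 151 to 170 and 185 to 186, in 38 UMIs. Among members with at least 3 UMIs, the shortest join removed the 24 bases from 240 to 263 in 5 UMIs. The longest removed the 239 bases from 27 to 265 as the only event, with 3 UMIs, and left the window of target 1 unaltered.

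Few alleles lay just outside the limit of the rule at target 10, and many just inside it. Deletions from targets 2 to 9 that ended just short of the window of target 10, at bases 259, 260 and 261, were present in 5, 4 and 8 alleles. Those ending just inside it, at bases 262, 263 and 264, were present in 34, 141 and 510. At the other limit, deletions that reached target 10 and started at bases 23, 24 and 25 touched target 1 and were not members. They formed only 20, 7 and 2 alleles, but held 2806, 292 and 35 UMIs. Starts at bases 26, 27 and 28 gave 0, 2 and 0 members, and 49 members with 156 UMIs started anywhere between the windows of targets 1 and 2.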

How the data were processed

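Per the labels' protocols, liver RNA was reverse transcribed with a UMI-tagged primer and the array amplified by nested PCR. Per the submitters' processing notes the build was mm10. No source used here names the allele caller or its filters, and read depth is unknown. The authors deposited a list of alleles and, taken in the same order, a list of the 12-base UMIs of each. UMIs per allele were counted from it. The layout of targets and cuts is general knowledge of the array. Col1a1 coordinates come from the RefSeq annotation of GRCm38.p6.

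Shares have exact (Clopper-Pearson) 95% intervals, and no test was made. The members and the lists were chosen with earlier results of these data known. Named were all 8 first targets, the 10 deletions in the most alleles, the 5 largest alleles, the exact joins, the extremes in alleles of at least 3 UMIs, and the edges of the rule. Groups by letters, by last kept base and by 1 added base were chosen after their values were seen. Alternatives were minimums of 2, 3 and 5 UMIs, weighting by UMIs, distinct deletions, whole targets, folding alleles 1 inserted base apart, and leaving out alleles with another join, the largest member, or events outside windows. On 2000 simulated alleles written as listed events, first target, offsets and the edit at target 1 were recovered in 100%. This checks only how listed events were read, since no sequences were simulated and allele calls and placements were not tested. Python 3.11.15, numpy 2.4.6 and scipy 1.17.1 were used.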

Additional observations from a re-analysis of the deposited data

How the results depend on the processing

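Of 79 values of the 9 main results under the alternatives, 39 stayed within the interval of the reported share, or within 1.5 times the reported count, and 40 did not; for the 16 shares by first target, 92 of 150 stayed and 58 moved. With each distinct deletion counted once, exact shares by first target were not computed. Members with no other join gave none for targets 8 and 9, and 20% of 5 alleles at target 7. An exact share at every first target was computed in 8 alternatives. In all 8, the lowest share among targets 4, 5, 6 and 9 was 30.5% or more. The highest among targets 2, 3, 7 and 8 was 8.79% or less. Minimums of 2, 3 and 5 UMIs left 1110, 624 and 287 member alleles, and 3865 and 2731 UMIs at 3 and 5, by construction. They gave 66.9%, 66.7% and 64.8% starting at the cut, 35.0%, 30.3% and 31.7% ending at it, 20.99%, 18.3% and 18.8% exact, and 39.6%, 39.3% and 36.9% with an insertion at target 1. The clean share was 56.0% and 59.5% at 3 and 5 UMIs, and 47.7% of distinct deletions recurred at 5. Weighting by UMIs gave 32.2% ending at the cut, 19.8% exact and 54.8% clean. Counting each deletion once gave 21.8%, 27.4% and 2.35% for start, end and exact, with start now below end and the last fixed by 8 possible exact joins. Whole targets gave 65.5%, 35.5%, 22.8% and 53.9% clean. Alleles with no other join numbered 995 with 2702 UMIs and gave 66.8%, 28.7% and 15.1%, 50.8% clean and 74.8% with an insertion at target 1; none started at targets 8 or 9. Folding 1640 alleles gave 42.0% with that insertion. Counting inserts of 1 to 3 bases only, added after seeing the data, gave 63.0% clean, and counting joins equal to an exact join with 1 added base as inserted, also added then, gave 40.7%. No paired analysis was possible because 1 sample has files. The number of UMIs limits the precision, since most members rest on 1 UMI.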
